A study of Mus musculus with 6 samples.

Results

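The genes described here encode neuropeptides and the dense-core secretory machinery that stores and processes them. They were taken by gene symbol from a list of 44 names that was drawn up with earlier results of these data known, and all 44 had a row among the 21899 genes of the deposited counts. Of these, 33 formed the peptide group, which holds 32 peptide precursors and Crhbp, a secreted protein that binds corticotropin-releasing hormone. The other 11 were 7 granins and chaperones (Vgf, Chga, Chgb, Scg2, Scg3, Scg5 and Pcsk1n) and 4 processing enzymes (Pcsk1, Pcsk2, Cpe and Pam).

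Neuropeptides are made as long precursors that enter the secretory pathway and are packed into dense-core vesicles. Granins help to form the cargo of these vesicles, prohormone convertases cut the precursors at basic residues, carboxypeptidase E trims the ends, and the enzyme encoded by Pam amidates many of the finished peptides. The thalamus itself is made up mostly of glutamatergic relay neurons with few peptide-producing cells, whereas the hypothalamus beneath it contains many small groups of neurons, each defined by a peptide such as oxytocin, vasopressin, orexin or melanin-concentrating hormone.

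Wild-type male C57BL/6J mice of 8 to 10 weeks received a single dose of 50 Gy to the left thalamus and 2 weeks later 2 µL of an AAV9 virus at 5.0E+11 GC/mL. The 3 mice of the RC group received GFAP104::tdTomato, a control virus for a red fluorescent protein, and the 3 mice of the RN group received GFAP104::mND1-tdTomato, which adds mouse NeuroD1, a transcription factor used to turn astrocytes into neurons. GFAP104 is an astrocyte-directed promoter, while AAV9 itself enters neurons as well as astrocytes, and both groups had been irradiated. Thalamus from beneath the hippocampus was removed with tweezers 6 weeks after irradiation and sequenced in bulk, so each mouse gave 1 library, and no unirradiated mice were analysed here.

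The libraries held between 16561663 and 18657015 counts, and 14956 genes passed the filter on low counts. Neurod1, the gene of the RN virus, rose from 5.10 ± 0.366 CPM (counts scaled to library size, mean ± SD, n = 3 mice) in RC to 69.7 ± 20.5 CPM in RN, which gave a log2 fold change of 3.77 (adjusted p = 0.00178, edgeR's quasi-likelihood test). The counts do not separate its viral from its native transcripts. All 12 thalamic marker genes were detected, with 0 of 12 called and a median log2 fold change of -0.49, and 0 of the 12 were above 0. Their sum was 1468, 1053 and 2172 CPM in RC replicates 1, 2 and 3 and 1535, 1269 and 815.9 CPM in RN replicates 1, 2 and 3, with 11 of the 12 highest in RC replicate 3 and 10 lowest in RN replicate 3. All 10 neuronal markers lay close to 0 but above it, between 0.04 and 0.25, with a median of 0.14. The 8 habenular markers had a median of 0.47, with all 8 above 0 and 0 called. In 2 of the 8 the groups did not overlap with RN higher. Of all tested genes, 50.8% were above 0 and 8.18% did not overlap with RN higher. Markers of other structures stood apart in some libraries. The sum of 9 anterior pituitary genes was 81.8, 90.5 and 1.60 CPM in RC replicates 1, 2 and 3 and 1392, 649.6 and 2.12 CPM in RN replicates 1, 2 and 3. The sum of 8 striatal genes, a list written after the values were seen, was 181.3, 454.1 and 618.4 CPM in the RC mice, against 142.2, 151.9 and 917.7 CPM in the RN mice. The sum of 10 choroid plexus genes was 2749, 8364 and 320.8 CPM in the RC mice, against 69.7, 100.8 and 147.7 CPM in the RN mice, with a median log2 fold change of -3.82. Of these 10, edgeR called 0 lower and DESeq2 called 8 lower, against 0.0134% and 0.542% of all tested genes.

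Of the 44 members, 37 passed the filter. A call required an adjusted p under 0.05 (Benjamini-Hochberg over all tested genes) and a fold change of at least 2, and edgeR's quasi-likelihood test called 0 of the 37 in either direction, where it called 0.0602% of all tested genes higher and 0.0134% lower in RN. At an unadjusted p under 0.05, 12 members were higher and 2 were lower, against 5.44% and 6.33% of all tested genes. DESeq2 called 4 members higher (Oxt, Trh, Nts and Vgf) and 1 lower (Adm), against 0.655% and 0.542% of all tested genes. With the replicate number as a block, edgeR called 1 member higher, Vgf, against 0.114% of all tested genes. Which members passed thus differed between the tools.

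The 3 RN mice all lay above the 3 RC mice in 11 of the 37 tested members, where 8.18% of all tested genes did so, and all lay below them in 2, where 8.12% of all tested genes did so. The 11 were Oxt, Avp, Crh, Trh, Nts, Adcyap1, Vgf, Chgb, Scg2, Pcsk1 and Pam, and the 2 were Adm and Cpe. RN was above RC within all 3 replicate numbers, which the labels do not call pairs, in 21 members, against 18.6% of all tested genes. The fitted log2 fold change was above 0 in 30, against 50.8%. The median log2 fold change was 0.73 over the 26 tested genes of the peptide group and 0.24 over the 11 granins and enzymes, against 0.0037 over all tested genes. A gene could pass the filter through 1 group alone, so these shares describe the genes that passed and not the full list. In bulk tissue, fewer cells of a type and less RNA per cell cannot be told apart, for these and all later values.

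**Figure D1:**
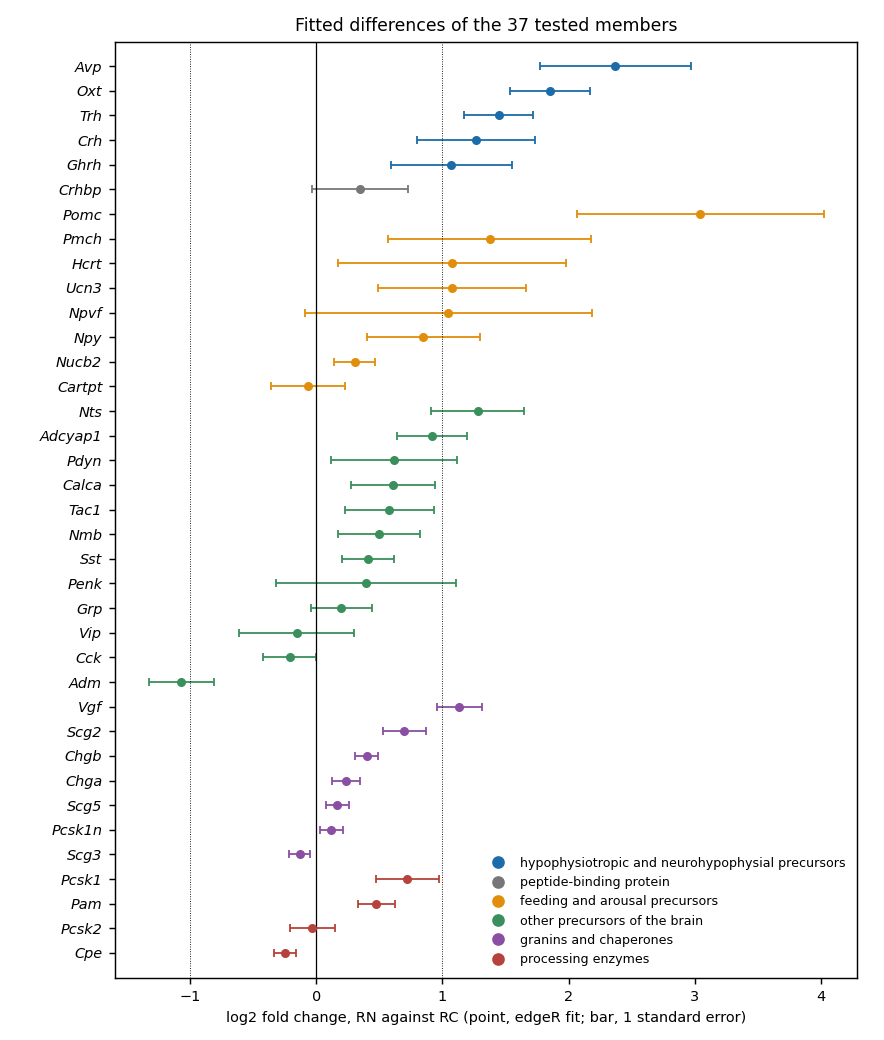
Fitted log2 fold change of RN against RC (horizontal axis) for the 37 tested members, grouped by role and coloured by it, each with a bar of 1 standard error and dotted lines at a 2-fold change in either direction. Pomc, with the largest fold change at 3.04, had a wide bar, and Npvf at 1.05 had the widest. The bars of Oxt at 1.85 and Vgf at 1.13 were narrower.

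The precursors of hormones that the hypothalamus releases towards the pituitary were the role with the largest median, 1.45 over the 5 of 7 that were tested. Oxt, the precursor of oxytocin, measured 15.6, 6.69 and 9.22 CPM in RC replicates 1, 2 and 3 and 27.5, 39.3 and 47.4 CPM in RN replicates 1, 2 and 3. Every RN mouse was above every RC mouse, and the log2 fold change was 1.85 (SE, the standard error of the fit, 0.32, adjusted p = 0.0813, edgeR). DESeq2 gave an adjusted p of 2.73e-07 for the same gene, and leaving out any 1 mouse kept the log2 fold change between 1.62 and 2.26. Avp, the precursor of vasopressin, which lies next to Oxt in the genome and is made in neighbouring magnocellular neurons, measured 8.64, 17.6 and 1.89 CPM in the RC mice, against 52.8, 59.7 and 32.6 CPM in the RN mice. The groups did not overlap here either, but RC replicate 3 was 9.29-fold below the highest RC mouse, and the log2 fold change of 2.37 had a standard error of 0.60 (adjusted p = 0.169, edgeR). With 1 mouse left out it lay between 1.89, without RC replicate 3, and 3.20, without RC replicate 2. In edgeR's fit of the filtered genes neither peptide of the posterior pituitary passed the threshold, whereas Oxt was called by DESeq2 and, without the filter on low counts, by edgeR (adjusted p = 0.0420).

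Trh encodes the precursor of thyrotropin-releasing hormone and Crh that of corticotropin-releasing hormone. Trh measured 20.6, 18.05 and 13.5 CPM in the RC mice, against 39.1, 34.5 and 68.7 CPM in the RN mice, with no overlap and RN replicate 3 the highest. Its log2 fold change was 1.45 (SE 0.27, adjusted p = 0.0986 in edgeR and 1.15e-05 in DESeq2), and it lay between 1.08, without RN replicate 3, and 1.62, without RN replicate 2. Crh measured 2.69, 2.27 and 0.745 CPM in the RC mice, against 4.82, 2.89 and 6.04 CPM in the RN mice. The groups again did not overlap, but RC replicate 1, with 48 counts, lay only just below RN replicate 2, with 54. Its log2 fold change of 1.26 had a standard error of 0.47 (adjusted p = 0.334 in edgeR and 0.156 in DESeq2). With 1 mouse left out it lay between 0.88 and 1.60. Ghrh, the precursor of growth hormone-releasing hormone, overlapped between the groups at 0.418 to 1.07 CPM in the RC mice, against 0.895 to 1.98 CPM in the RN mice. Gnrh1, the precursor of gonadotropin-releasing hormone, did not pass the filter, with 0, 1 and 2 counts in the RC mice, against 5, 16 and 19 counts in the RN mice. Against a floor of 3 counts per RC library, its mean RN level was at least 4.27-fold higher, though RN replicate 1 lay nearer the floor. Without the filter its log2 fold change was 3.53, and it was not called (adjusted p = 0.165, edgeR). Kiss1, whose peptide acts on the neurons that release that hormone, had at most 5 counts in any mouse. Crhbp overlapped between the groups, with a log2 fold change of 0.35 (adjusted p = 0.813, edgeR).

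Promoter windows of 250 bases before the start of each gene were read from RefSeq on GRCm38.p6, a different build from that of the counts, and 36 of the 44 members matched. The letters CAGATG, an E-box of the kind that NeuroD factors are known to bind, were found on either strand in 7 of the 36 windows (19.4%: Avp, Trh, Pomc, Cartpt, Ucn3, Tac1 and Cck) and in 16.3% of the windows of all 27025 genes. The members' share was thus close to that of all genes. Vgf, Crh and Cpe, whose groups did not overlap, had no window. Among the members without overlap that had one, Avp and Trh were the only carriers of these letters. Their windows are shown because both genes were higher in every RN mouse, with the E-box letters in capitals. The Avp window lies at chr2:130582589-130582838 on the minus strand, with the letters 127 to 122 bases before the start, and the Trh window at chr6:92244651-92244900 on the minus strand, with the letters 215 to 210 bases before it.
Avp: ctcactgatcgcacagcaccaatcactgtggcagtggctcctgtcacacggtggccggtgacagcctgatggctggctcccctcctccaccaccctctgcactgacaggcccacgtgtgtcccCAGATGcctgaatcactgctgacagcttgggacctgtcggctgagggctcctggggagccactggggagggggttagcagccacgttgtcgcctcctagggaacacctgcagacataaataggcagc
Trh: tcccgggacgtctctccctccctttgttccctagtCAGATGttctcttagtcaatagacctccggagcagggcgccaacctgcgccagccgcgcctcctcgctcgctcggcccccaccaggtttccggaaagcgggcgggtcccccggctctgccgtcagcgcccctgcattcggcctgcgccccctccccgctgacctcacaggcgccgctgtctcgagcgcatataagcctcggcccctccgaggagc
Other E-box letters were not counted, and a match is a description of the window only.

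Several markers of the hypothalamus that encode no peptide were higher in RN as well. Of 16 such genes, 13 were tested, with a median log2 fold change of 1.71. In 8 of them the groups did not overlap with RN higher, against 8.18% of all tested genes. In edgeR only 1 was called, the melatonin-related receptor gene Gpr50 (log2 fold change 2.89, adjusted p = 0.0419), against 0.0602% of all tested genes called higher. DESeq2 called 6 of the 13 higher, against 0.655% of all tested genes. The summed level of the 16 genes was 47.0 to 55.1 CPM in the RC mice, against 86.3 to 102.4 CPM in the RN mice. The edgeR call of Gpr50 was lost when any of RC replicates 1, 2 and 3 and RN replicates 2 and 3 was left out. Its adjusted p-values lay between 0.0279 and 0.107 over the 6 fits that left out 1 mouse (edgeR). Six3, the most abundant of the 16 in RC and also a gene of striatal neurons, had a log2 fold change of -0.26. The transcription factors Otp and Nkx2-1, which are needed for hypothalamic neurons to form, were among the 8. Otp measured 7.12, 3.88 and 1.78 CPM in the RC mice, against 12.5, 17.5 and 11.7 CPM in the RN mice. RC replicate 3 was the lowest mouse for 10 of the 13 tested markers and for 13 of the 26 tested peptide genes, against 19.8% of all tested genes. RN replicate 3 was the highest mouse for 11 of the 26, against 16.5% of all tested genes. It was the highest for only 1 of the 13 hypothalamic markers, while RN replicate 2 was for 7 and RN replicate 1 for 3. Most thalamic markers were highest in RC replicate 3 and lowest in RN replicate 3. The part of hypothalamic and thalamic tissue in the peptide values was not tested.

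**Figure D2:**
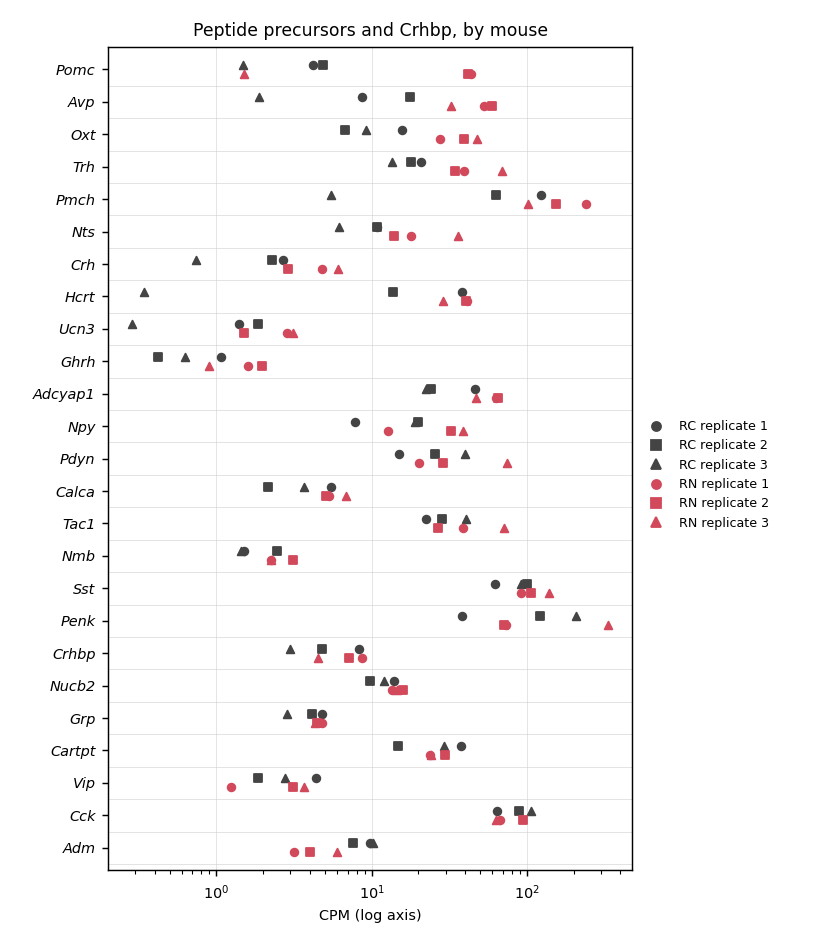
CPM on a log axis for 25 tested genes of the peptide group in each mouse, ordered by fitted fold change, with RC in grey, RN in red and the symbol giving the replicate number (Npvf, with a value of 0 in RC replicate 3, is left out). Oxt, Avp, Trh, Nts, Crh and Adcyap1 separate the groups with RN higher, Adm separates them with RN lower, and RC replicate 3 is the lowest point of many peptides, such as Hcrt at 0.344 CPM.

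The precursors linked to feeding and arousal had a median log2 fold change of 1.06 over the 8 of 12 that were tested, but in 0 of the 8 did the groups separate. Pmch and Hcrt mark 2 groups of neurons of the lateral hypothalamus, which make melanin-concentrating hormone and the orexins. Pmch measured 122.9, 63.2 and 5.44 CPM in the RC mice, against 239.9, 154.6 and 102.1 CPM in the RN mice. Only RC replicate 1 reached into the range of RN, and the log2 fold change was 1.37 (SE 0.81, adjusted p = 0.589, edgeR). Hcrt measured 38.2, 13.7 and 0.344 CPM in the RC mice, against 41.3, 40.3 and 28.7 CPM in the RN mice, so that 3 RN mice within 1.44-fold of each other stood beside 3 RC mice that spanned 111-fold. Its log2 fold change was 1.08 (SE 0.91, adjusted p = 0.739, edgeR). Without RC replicate 3 the log2 fold change was 0.83 for Pmch and 0.50 for Hcrt, and without RC replicate 1 it was 2.27 and 2.40. Npvf, the precursor of the RFamide-related peptides and made in a small dorsomedial hypothalamic group, showed the same 2 low RC mice, with 42, 1 and 0 counts in the RC mice, against 38, 40 and 12 counts in the RN mice.

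Pomc had the largest fold change of the tested members and one of the widest spreads within a group. Its product is cut into the stress hormone ACTH in the pituitary and into melanocortins in the arcuate nucleus. Pomc measured 4.21, 4.84 and 1.49 CPM in the RC mice, against 43.5, 42.0 and 1.51 CPM in the RN mice, which gave a log2 fold change of 3.04 (SE 0.98, adjusted p = 0.254, edgeR). RN replicates 1 and 2 were far above all other mice and RN replicate 3 was level with the lowest RC mouse. The summed level of the pituitary genes, most of it from Gh, had the same order of mice as Pomc, from RC replicate 3 through RN replicate 3, RC replicates 1 and 2, and RN replicate 2 to RN replicate 1. Growth hormone, Gh, had 1008, 1284 and 16 counts in the RC mice, against 18453, 7461 and 27 counts in the RN mice, and 4 of the 9 pituitary genes could be tested, with a median log2 fold change of 3.98. Of these 4, 2 were highest in RN replicate 1 and 2 in RN replicate 2, and 3 were lowest in RC replicate 3 and 1 in RN replicate 3. Cga, the subunit shared by several pituitary hormones, had a log2 fold change of 4.34 (adjusted p = 0.279, edgeR) and was called with the replicate block (4.32, adjusted p = 0.00936) and without both mice of replicate 3 (adjusted p = 0.00511). Without RN replicate 3, Pomc was called at a log2 fold change of 3.61 (adjusted p = 0.0483, edgeR), and without both mice of replicate 3 at 3.24 (adjusted p = 0.00511). Both of these fits removed the RN mouse in which Pomc was low. Leaving out both mice of replicate 3, for Pomc and for Cga, was added after the values were seen. The part of pituitary tissue in the Pomc values was not tested.

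Agrp, made by the arcuate neurons that oppose those of Pomc, was untested, with 0, 3 and 13 counts in the RC mice, against 5, 28 and 1 in the RN mice, and its order of mice was not that of Pomc. Npy, which is made by the same arcuate neurons and by many interneurons, measured 7.80, 19.8 and 18.96 CPM in the RC mice, against 12.7, 32.2 and 38.8 CPM in the RN mice. The groups overlapped, but within each replicate number the RN mouse was the higher one, and the log2 fold change was 0.85 (adjusted p = 0.533, edgeR). Cartpt, which encodes the CART peptides, measured 37.4, 14.8 and 29.1 CPM in the RC mice, against 23.7, 29.7 and 24.2 CPM in the RN mice, which gave a log2 fold change of -0.07. Nucb2, the precursor of nesfatin, and Ucn3, a ligand of a corticotropin-releasing hormone receptor, overlapped between the groups with log2 fold changes of 0.30 and 1.08. Npb, Nmu and Nms, which encode neuropeptide B, neuromedin U and neuromedin S, were untested, with at most 16 counts in any mouse. Nms had 5, 3 and 4 counts in the RC mice, against 9, 13 and 11 in the RN mice, which did not overlap.

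**Figure D3:**
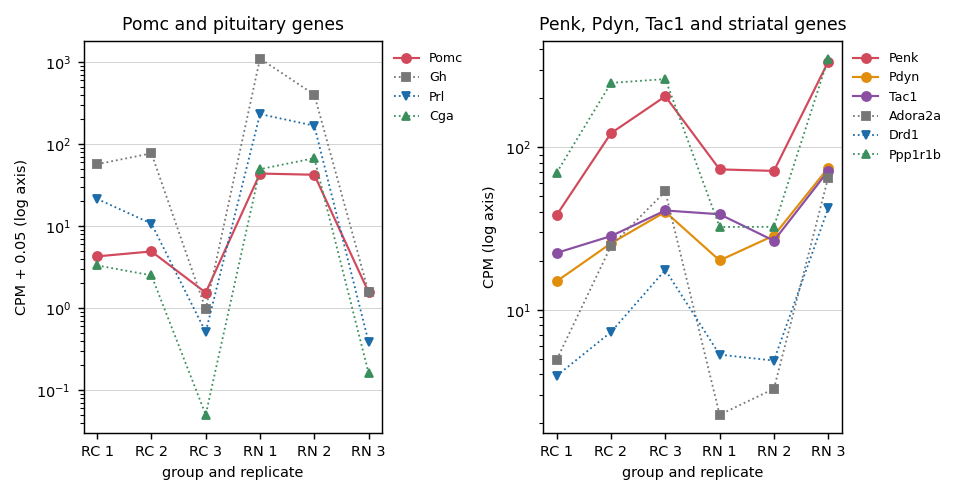
Left, CPM + 0.05 on a log axis in each of the 6 mice for Pomc and the pituitary hormone genes Gh, Prl and Cga. Right, CPM on a log axis for Penk, Pdyn and Tac1 beside the striatal genes Adora2a, Drd1 and Ppp1r1b. Lines only join the values of 1 gene, since the mice have no order. All 4 genes on the left are low in both mice of replicate 3, and all 6 on the right are highest in RN replicate 3.

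The remaining precursors are made in many brain regions, and their median log2 fold change was 0.45 over the 12 of 13 that were tested. Nts, the precursor of neurotensin, measured 10.8, 10.8 and 6.19 CPM in the RC mice, against 18.02, 13.8 and 35.8 CPM in the RN mice. The groups did not overlap, the log2 fold change was 1.28 (SE 0.37, adjusted p = 0.208 in edgeR and 0.0105 in DESeq2), and it lay between 0.78 and 1.53 with 1 mouse left out, lowest without RN replicate 3. Adcyap1, the precursor of the peptide PACAP, measured 46.6, 24.0 and 22.4 CPM in the RC mice, against 63.6, 65.3 and 46.7 CPM in the RN mice. RC replicate 1 lay only just below RN replicate 3, and the log2 fold change was 0.92 (SE 0.28, adjusted p = 0.225 in edgeR and 0.0201 in DESeq2), below the 2-fold limit of a call. Sst, the precursor of somatostatin and a marker of a class of inhibitory neurons, overlapped, at 61.9, 99.98 and 91.7 CPM in the RC mice, against 91.4, 106.9 and 138.7 CPM in the RN mice, with a log2 fold change of 0.41.

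Adm was the only peptide precursor that was lower in every RN mouse. It encodes adrenomedullin, a vasodilator peptide made by endothelial and other cells in response to low oxygen. Adm measured 9.82, 7.59 and 10.3 CPM in the RC mice, against 3.15, 4.01 and 5.98 CPM in the RN mice, which gave a log2 fold change of -1.07 (SE 0.26, adjusted p = 0.151 in edgeR and 0.0132 in DESeq2). Leaving out any 1 mouse kept it between -1.36 and -0.88. It was also the only member to be called lower by DESeq2.

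The opioid precursors Penk and Pdyn and the substance P precursor Tac1 are abundant in the neurons of the striatum. Penk measured 38.3, 121.9 and 205.5 CPM in the RC mice, against 73.0, 71.4 and 335.1 CPM in the RN mice, which gave a log2 fold change of 0.39 with a standard error of 0.71. The spread within each group was thus larger than the difference between them, and the log2 fold change was -0.76 without RN replicate 3 and 1.00 without RC replicate 3. Pdyn measured 15.0, 25.6 and 40.0 CPM in the RC mice, against 20.1, 28.6 and 74.5 CPM in the RN mice, and Tac1 measured 22.4, 28.4 and 40.8 CPM in the RC mice, against 38.7, 26.6 and 71.4 CPM in the RN mice. All 3 were highest in RN replicate 3, as were all 8 striatal genes, and all 3 had RC replicate 3 as the next highest, as did the striatal sum. The low end differed. All 3 were lowest in RC replicate 1, as were 4 of the 8 striatal genes, but the striatal sum was lowest in RN replicate 1. The log2 fold changes of 0.61 for Pdyn and 0.58 for Tac1 became -0.14 and 0.10 without RN replicate 3. They reached 1.02 and 0.85 with another mouse left out. The part of striatal tissue in these values was not tested.

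Cck, Grp, Nmb, Vip and Calca, which encode cholecystokinin, gastrin-releasing peptide, neuromedin B, vasoactive intestinal peptide and calcitonin gene-related peptide, overlapped between the groups. Their log2 fold changes lay between -0.21 for Cck and 0.61 for Calca, with adjusted p-values of at least 0.549 in edgeR. Ucn, the precursor of urocortin, was untested and uneven, with 19, 0 and 17 counts in the RC mice, against 4, 1 and 0 counts in the RN mice.

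Vgf was the member with the smallest adjusted p. It encodes a granin-like precursor that is induced in neurons by growth factors and activity and is itself cut into several peptides. Vgf measured 108.5, 124.3 and 135.1 CPM in the RC mice, against 196.5, 293.0 and 317.5 CPM in the RN mice, with every RN mouse above every RC mouse. The log2 fold change was 1.13 (SE 0.18, adjusted p = 0.0666, edgeR), it was called at 1.11 with the replicate block (adjusted p = 0.0378) and at 1.32 without RN replicate 1 (adjusted p = 0.0153), and DESeq2 gave an adjusted p of 2.06e-07. Leaving out any 1 mouse kept it between 1.00 and 1.32.

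Scg2 and Chgb, which encode secretogranin II and chromogranin B, also separated the groups, by less. Scg2 measured 590.6, 366.6 and 392.6 CPM in the RC mice, against 743.4, 729.3 and 716.2 CPM in the RN mice. The 3 RN mice lay close together, and the log2 fold change was 0.70 (SE 0.17, adjusted p = 0.150 in edgeR and 0.0032 in DESeq2). Chgb measured 222.4, 200.1 and 214.0 CPM in the RC mice, against 285.5, 301.5 and 252.2 CPM in the RN mice, which gave a log2 fold change of 0.40 (SE 0.093, adjusted p = 0.139 in edgeR and 0.0101 in DESeq2). Both were below the 2-fold limit of a call in every tool. The other granins and chaperones overlapped between the groups. Chga, chromogranin A, had a log2 fold change of 0.24, Scg3, a granin that ties cargo to the vesicle membrane, one of -0.13, Scg5, the chaperone of prohormone convertase 2, one of 0.17, and Pcsk1n, an inhibitor of prohormone convertase 1, one of 0.12.

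Among the processing enzymes, Pcsk1 and Pam were higher and Cpe was lower in every RN mouse, while Pcsk2 overlapped. Pcsk1, prohormone convertase 1, measured 37.9, 20.7 and 18.9 CPM in the RC mice, against 46.2, 43.6 and 38.1 CPM in the RN mice, which gave a log2 fold change of 0.72 (SE 0.25, adjusted p = 0.292, edgeR). RC replicate 1 was again close to the lowest RN mouse. Pam, the amidating enzyme, measured 235.7, 173.6 and 159.0 CPM in the RC mice, against 269.2, 273.4 and 247.6 CPM in the RN mice, which gave a log2 fold change of 0.48 (SE 0.14, adjusted p = 0.228, edgeR). Pcsk2, the second convertase of these vesicles, measured 321.2, 211.1 and 359.7 CPM in the RC mice, against 316.2, 290.1 and 266.8 CPM in the RN mice, and its log2 fold change of -0.03 was smaller than its standard error of 0.18. Cpe, carboxypeptidase E, which astrocytes express as well as neurons, measured 2802, 3332 and 3350 CPM in the RC mice, against 2584, 2731 and 2648 CPM in the RN mice, which gave a log2 fold change of -0.25 (SE 0.087, adjusted p = 0.298, edgeR).

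**Figure D4:**
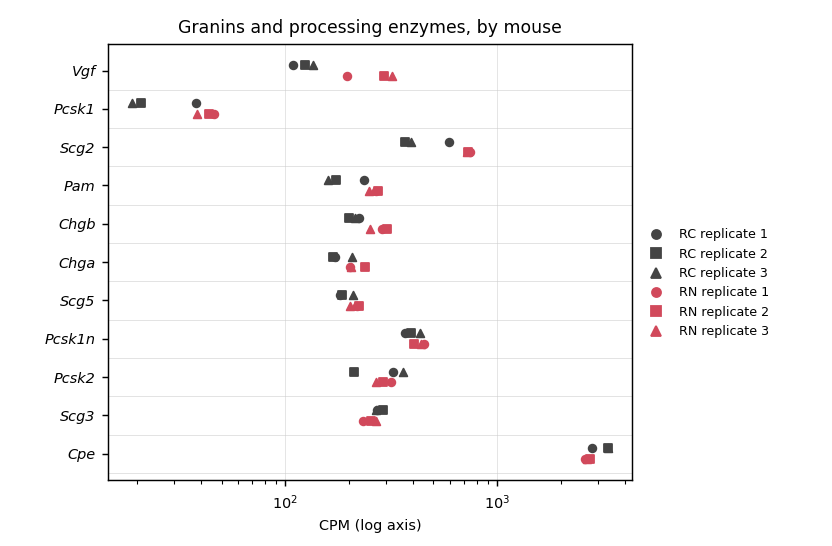
CPM on a log axis for the 11 granins, chaperones and processing enzymes in each mouse, ordered by fitted fold change, with RC in grey, RN in red and the symbol giving the replicate number. Vgf, Pcsk1, Scg2, Pam and Chgb separate the groups with RN higher, Cpe separates them with RN lower, and the other 5 overlap.

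The letters TGACGTCA, the palindromic cAMP response element that activity-regulated factors of the CREB family are known to bind, were found in 6 of the 36 member windows (16.7%) and in 1.77% of the windows of all genes. The 6 were Cartpt, Sst, Ucn, Chgb, Scg2 and Pcsk1, of which 3 separated the groups with RN higher and none with RN lower. Of all 37 tested members, with or without a window, 11 separated the groups with RN higher. The carriers include members that were not tested, such as Ucn, so these counts are not of like sets. The shorter TGACG, which is part of TGACGTCA, was in 58.3% of the member windows and 19.8% of all, and TGACTCA, the letters of an AP-1 site, in 13.9% and 5.16%. Of the 21 members with TGACG, 6 separated the groups with RN higher. The motifs were chosen after the values were seen, and their part in these values was not tested. No window was at hand for Vgf, Crh or Cpe, which also separated the groups. The windows of the 3 carriers that separated the groups are shown with the element in capitals, which lay between 78 and 61 bases before the start in all 3. They lie at chr1:79440027-79440276 on the minus strand for Scg2, at chr2:132781392-132781641 on the plus strand for Chgb and at chr13:75089607-75089856 on the plus strand for Pcsk1.
Scg2: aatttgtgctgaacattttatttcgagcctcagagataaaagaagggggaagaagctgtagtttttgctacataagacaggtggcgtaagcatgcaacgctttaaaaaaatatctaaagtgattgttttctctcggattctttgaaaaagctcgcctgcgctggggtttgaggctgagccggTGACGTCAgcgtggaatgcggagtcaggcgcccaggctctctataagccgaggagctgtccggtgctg
Chgb: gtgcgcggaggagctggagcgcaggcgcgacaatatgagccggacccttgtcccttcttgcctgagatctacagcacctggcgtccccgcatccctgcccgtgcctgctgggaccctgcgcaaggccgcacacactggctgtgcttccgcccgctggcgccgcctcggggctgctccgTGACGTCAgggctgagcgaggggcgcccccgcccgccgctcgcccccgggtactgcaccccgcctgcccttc
Pcsk1: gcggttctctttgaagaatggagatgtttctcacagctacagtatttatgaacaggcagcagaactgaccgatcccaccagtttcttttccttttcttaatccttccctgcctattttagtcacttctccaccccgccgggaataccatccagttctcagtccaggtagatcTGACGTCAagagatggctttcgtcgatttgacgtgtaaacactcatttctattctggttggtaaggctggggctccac
The other 3 carriers, Cartpt, Sst and Ucn, did not separate the groups or were not tested.

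Levels can be compared between genes only per exon length. On the scale of CPM per kb of exon, the mean level in RC was highest for Cpe, at 1212, followed by Pcsk1n at 181, Scg2 at 179, Scg5 at 122, Sst at 117 and Scg3 at 101. In RN it was again highest for Cpe, at 1017, followed by Scg2 at 290, Pmch at 221, Pcsk1n at 196 and Sst at 156. Pcsk1n and Scg2 in RC were too close to be ordered, given the SD of Scg2 across mice. Sst was the peptide precursor with the highest mean per kb in RC and Pmch in RN, but not in every mouse, since Pmch was above Sst in RC replicate 1 and Sst above Pmch in RN replicate 3. Summed over the 33 genes of the peptide group, the level was 572.2, 597.6 and 632.6 CPM in the RC mice, against 904.7, 894.4 and 1164 CPM in the RN mice. Summed over the 11 granins and enzymes, the groups overlapped, at 5308, 5461 and 5743 CPM in the RC mice, against 5542, 5779 and 5600 CPM in the RN mice. Cpe, the most abundant of the 11, was lower in every RN mouse. Without Cpe the sum was 2506, 2129 and 2393 CPM in the RC mice, against 2958, 3048 and 2952 CPM in the RN mice.

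**Figure D5:**
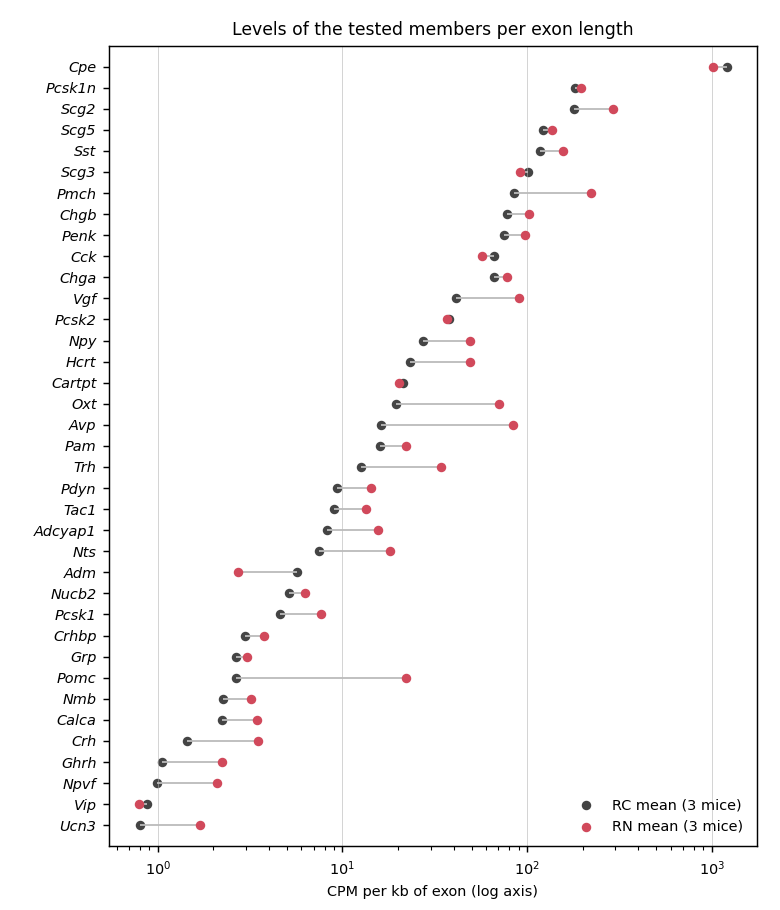
Mean CPM per kb of exon on a log axis in RC (grey) and RN (red) for the 37 tested members, ordered by the RC mean of 3 mice, with a line joining the 2 means of a gene. Cpe is the highest in both groups, and the longest lines, such as those of Pomc, Avp and Oxt, belong to peptide precursors.

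The peptide genes varied more between mice of 1 group than the secretory genes did. The median SD of log2 CPM was 0.63 in RC and 0.50 in RN over the 26 tested peptide genes, 0.16 and 0.11 over the granins and enzymes, and 0.18 and 0.15 over all tested genes. It was largest for the feeding and arousal precursors in RC, at 1.06. The depth behind them differed too, since the 11 secretory genes all had at least 330 counts in every mouse and Npvf had 0 in 1 mouse.

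Other genes of the pathway were read from 4 lists. Of 49 receptors for these peptides, 41 were tested, with a median log2 fold change of 0.42, 33 above 0 and 0 called. In 9 the groups did not overlap with RN higher and in 2 with RN lower, against 8.18% and 8.12% of all tested genes. Among the 9 were 4 of the 5 somatostatin receptors (Sstr1, Sstr2, Sstr4 and Sstr5), which were picked out after their values were seen. Calcr, the calcitonin receptor, measured 5.22, 2.57 and 1.43 CPM in the RC mice, against 10.3, 9.62 and 16.8 CPM in the RN mice, which gave a log2 fold change of 1.99 (adjusted p = 0.129, edgeR). Ntsr2, a neurotensin receptor of astrocytes, was lower in every RN mouse at a log2 fold change of -0.43 (adjusted p = 0.200, edgeR), while its ligand precursor Nts was higher. Adcyap1r1, the PACAP receptor, was higher at 0.32 (adjusted p = 0.213, edgeR), as was Adcyap1.

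All 28 genes for the transport and release of dense-core vesicles were tested, with a median log2 fold change of 0.13, 24 above 0 and 0 called. In 7 the groups did not overlap with RN higher and in 0 with RN lower, against 8.18% and 8.12% of all tested genes. Sytl4, which encodes the granule-docking protein granuphilin, had a log2 fold change of 1.38 and Ptprn, a membrane protein of the vesicles, one of 0.43 (both adjusted p = 0.0986, edgeR). Resp18, a neuroendocrine granule protein, had one of 0.57 (adjusted p = 0.135, edgeR).

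Of 23 other proteases that cut or degrade peptides, 22 were tested, with a median log2 fold change of 0.06 and 1 called. Ecel1, an endopeptidase known to be induced in injured neurons, rose from 41.6, 46.6 and 41.4 CPM in RC to 97.8, 102.0 and 143.7 CPM in RN, which gave a log2 fold change of 1.41 (adjusted p = 0.0365, edgeR). Anpep, an aminopeptidase of pericytes and other cells, had a log2 fold change of 1.16 (adjusted p = 0.0661, and 0.0378 with the replicate block, edgeR), and Ctsl, a lysosomal cathepsin that also cuts precursors, one of 0.77 (adjusted p = 0.126, edgeR). Of 30 other peptide precursors, 11 were tested, with a median log2 fold change of -0.28. Gal, the precursor of galanin, rose (log2 fold change 3.68, adjusted p = 0.0365, edgeR) and Apln, the precursor of the endothelial peptide apelin, fell (log2 fold change -1.32, adjusted p = 0.0383, edgeR). Pnoc, the precursor of nociceptin, was higher at 0.75 (adjusted p = 0.124, edgeR). These calls changed with the mice used. Over the 6 fits that left out 1 mouse, edgeR's adjusted p lay between 0.0240 and 0.107 for Ecel1, which was lost without any of RC replicates 1, 2 and 3 and RN replicate 2. It lay between 0.00297 and 0.107 for Gal, which was kept only without RN replicate 1 and was at 0.0525 with the replicate block. For Apln it lay between 0.03003 and 0.190, and the call was lost without RC replicate 1, RC replicate 2 or RN replicate 2.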

How the data were processed

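Thalamus of 3 RC and 3 RN mice was analysed, grouped by their labels, with each library a separate mouse. The authors deposited gene counts as whole numbers, 1 column per mouse, without normalization. The submitters' processing notes name fastp 0.18.0, FastQC, HISAT2 2.2.4, RSEM 1.2.19 and GRCm39. If RSEM made the counts they were estimated and rounded, and how reads shared between genes were divided and whether strand was used are not given in the sources used here. All sample columns of the table were used. Lhb, on more than 1 identifier, was left out.

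Counts were filtered with filterByExpr (minimum count 10), normalized by TMM and tested with edgeR 4.0.16 (limma 3.58.1, R 4.3.3) by the quasi-likelihood F test of group alone, with Benjamini-Hochberg adjustment over 14956 genes. Depths of 16561663 to 18657015 put a floor of 3 counts at 0.160 to 0.179 CPM, for counting error only. The code was tested on simulated data. Alternatives were DESeq2 1.42.0 (the tool of the study's own methods), its size factors in edgeR, the table unfiltered, a minimum of 10 counts per mouse, no limit on fold or one of 0.6 on the log2 scale, the replicate block, and each mouse left out. Leaving out both mice of replicate 3 was added after the values were seen, as were the motifs and the windows shown. Exon lengths came from GENCODE M21.

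The members and lists were chosen with earlier results of these data known. Named genes are every member, up to 3 tested genes of each list by smallest p, and Neurod1. Otp, Gh, Six3, the somatostatin receptors and the striatal genes lie outside that rule and were named after their values were seen. The groups share replicate numbers. Deviations from the group means of same-numbered mice correlated at 0.173, 0.120 and 0.209, each above 0.1. RC replicate 1 and RN replicate 2, of unlike number, also correlated at 0.156, above the 0.120 of replicate 2. The labels do not pair the mice, and the paper divided them into groups at random, so a pairing is not established. The replicate block and the counts within replicate numbers treat the numbers as pairs, while the main test does not.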

Additional observations from a re-analysis of the deposited data

How the results depend on the processing

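For all genes, 9 were called higher and 2 lower. These counts were 36 and 7 without the filter, 17 and 5 with the replicate block, 98 and 81 in DESeq2, 4 and 0 without both mice of replicate 3, and between 3 and 26 and between 0 and 18 with 1 mouse left out. For the members, 0 were called in either direction. Those called higher were 2 without the filter (Oxt and Vgf), 1 with the block (Vgf), 4 in DESeq2, 1 without both mice of replicate 3 (Pomc), and between 0 and 1 with 1 mouse left out, which was Vgf without RN replicate 1 and Pomc without RN replicate 3. DESeq2 called 1 member lower. In the pathway lists, 2 higher calls became 5 in DESeq2, 0 without both mice of replicate 3 and between 0 and 3 with 1 mouse left out, and 1 lower call became 0 without both mice of replicate 3 and between 0 and 1 with 1 mouse left out. Members higher without overlap were 11 in all, against 8.18% of all tested genes, and 21 counted within replicate numbers, against 18.6%. They were 18 without both mice of replicate 3 and between 11 and 20 with 1 mouse left out. Members lower without overlap, 2 in all, against 8.12% of all tested genes, were between 2 and 4 with 1 mouse left out. Groups of fewer mice separate more easily, and the shares over all tested genes are not given for the fits with mice left out. The median log2 fold change of the peptide genes, 0.73, was 0.44 without both mice of replicate 3 and lay between 0.57 and 0.98 with 1 mouse left out. That of the granins and enzymes, 0.24, was 0.37 without both mice of replicate 3 and lay between 0.16 and 0.33 with 1 mouse left out. The cause of these shifts was not tested, beyond the smaller number of mice.

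Signs turned for Cartpt (0.0113 with the replicate block, 0.0347 without both mice of replicate 3, between -0.36 and 0.24 with 1 mouse left out), Pcsk2 (0.00088 with the block, 0.188 without both mice of replicate 3, between -0.23 and 0.13 with 1 mouse left out) and Penk (-0.149 without both mice of replicate 3, between -0.76 and 1.00 with 1 mouse left out). They also turned for Pdyn (between -0.14 and 1.02) and Vip (between -0.45 and 0.22) with 1 mouse left out, and for Cck at 0.0656, and the thalamic markers Lef1 at 0.0321 and Synpo2 at 0.0481, without both mice of replicate 3. None of these was past the threshold in either fit. The replicate block changed no other call among the members, and in the pathway lists it added Anpep (adjusted p = 0.0378) and lost Gal (0.0525) in edgeR. Among the marker genes named it added the pituitary gene Cga (0.00936). Under at least 10 counts in every mouse, 33 members had a value. Depth limited 7 members to counts without a test in the filtered fit.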
